A study of Homo sapiens with 6 samples.

Results

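The transcripts described here encode 35 aminoacyl-tRNA synthetases, 19 that work in the cytosol and 16 that work in mitochondria, in SH-SY5Y cells. They were chosen by gene symbol, and all 35 were found among the 60665 genes of the count table. SH-SY5Y cells are a line derived from a human neuroblastoma and long used as a neuronal model. There are 6 labelled samples: 3 control wells given 10 uL of DMSO in 2 mL of medium, and 3 wells given DMSO together with an Nrf2-peptide-linked fumarate in water, all lysed after 5 h. The study addressed the response to that peptide, but only 3 columns of the table carry the number of a labelled sample, and these are the 3 controls. No treated library was analysed here, and no treatment effect is given. If the column numbers do not follow the labels, the libraries described could be others than the controls.

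An aminoacyl-tRNA synthetase joins an amino acid to its matching tRNA, the step at which the genetic code is read. Cytosolic and mitochondrial protein synthesis mostly use separate enzymes from separate nuclear genes, and by convention the mitochondrial ones end in 2. GARS1 and KARS1, for glycine and lysine, encode both forms from a single gene, and QARS1, for glutamine, has no mitochondrial counterpart because mitochondria make that charged tRNA by amidation. EPRS1 joins the glutamate and the proline enzyme in a single protein, and FARSA and FARSB are the subunits of the cytosolic phenylalanine enzyme. Several cytosolic synthetases are bound together in the multisynthetase complex. When amino acids run short, uncharged tRNA activates the kinase GCN2 (EIF2AK4), which raises the transcription factor ATF4, and many cytosolic synthetase genes are known ATF4 targets.

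Because such regulation acts through promoters, the promoter windows of the members were read first. A window held 250 bases before to 50 after an annotated start, from RefSeq on GRCh38.p14, and 30 of the 35 members had at least 1 window, in all 39. LARS1, VARS1, YARS1, AARS2 and VARS2 were not matched. The core of the amino acid response element, the sequence that ATF4 binds, was searched as TGATGNAA on both strands. It was found in 7 of 16 cytosolic genes and in 1 of 14 mitochondrial genes. It occurred in 3.62% of all 35116 windows, and 4.46% of all 27305 genes with a window had it. The cytosolic genes were AARS1, CARS1, GARS1, IARS1, MARS1, NARS1 and TARS1, and the mitochondrial gene was YARS2.

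These 8 sites are shown because this core had the highest share among the cytosolic genes of the motifs searched. Each is written 5′ to 3′ on the strand where it reads TGATGNAA, with the core in capitals and 20 bases on each side. They lie at chr16:70289666-70289713 (plus strand) for AARS1, chr11:3057398-3057445 (plus) for CARS1, chr7:30594825-30594872 (minus) for GARS1 and chr9:92293683-92293730 (plus) for IARS1. The others lie at chr12:57488044-57488091 (minus) for MARS1, chr18:57621795-57621842 (minus) for NARS1, chr5:33440947-33440994 (minus) for TARS1 and chr12:32756067-32756114 (minus) for YARS2.
AARS1: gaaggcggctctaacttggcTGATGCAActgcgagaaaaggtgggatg
CARS1: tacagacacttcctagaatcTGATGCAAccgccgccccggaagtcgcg
GARS1: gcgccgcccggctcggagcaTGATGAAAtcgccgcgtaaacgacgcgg
IARS1: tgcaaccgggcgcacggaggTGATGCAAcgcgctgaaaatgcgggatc
MARS1: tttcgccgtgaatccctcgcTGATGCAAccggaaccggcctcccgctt
NARS1: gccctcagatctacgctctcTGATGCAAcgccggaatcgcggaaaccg
TARS1: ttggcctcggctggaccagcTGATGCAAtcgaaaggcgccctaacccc
YARS2: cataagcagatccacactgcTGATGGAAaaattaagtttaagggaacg

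In 6 of the 7 cytosolic sites the core read TGATGCAA, and GARS1 alone had another base at the free position. The middle of the core lay within 30 bases of the annotated start in 6 of the 7, and 183 bases before it in AARS1. In YARS2 it lay 193 bases before the start. In 6 of the 7 cytosolic genes the core stood on the strand opposite to the gene. No core overlapped another of the motifs searched, but the bases printed after the CARS1 core include CCGGAAGT, the ETS core treated below. A match of letters is a description of the window and does not show binding.

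Other motifs were searched in the same windows, on both strands. The antioxidant response element core, TGACNNNGC, through which NRF2 acts, was found in 4 of 16 cytosolic genes (GARS1, KARS1, TARS1 and WARS1) and 2 of 14 mitochondrial genes (NARS2 and RARS2), against 16.1% of all genes. The ETS core, CCGGAAGT, occurred in 5 cytosolic genes (CARS1, HARS1, NARS1, TARS1 and WARS1) and 3 mitochondrial genes (EARS2, HARS2 and PARS2), against 4.95% of all genes. The core bound by nuclear respiratory factor 1, a regulator of nuclear genes for mitochondria, was searched as GCGCATGCG. It was found in MARS2 and in no other member, against 2.34% of all genes.

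**Figure D1:**
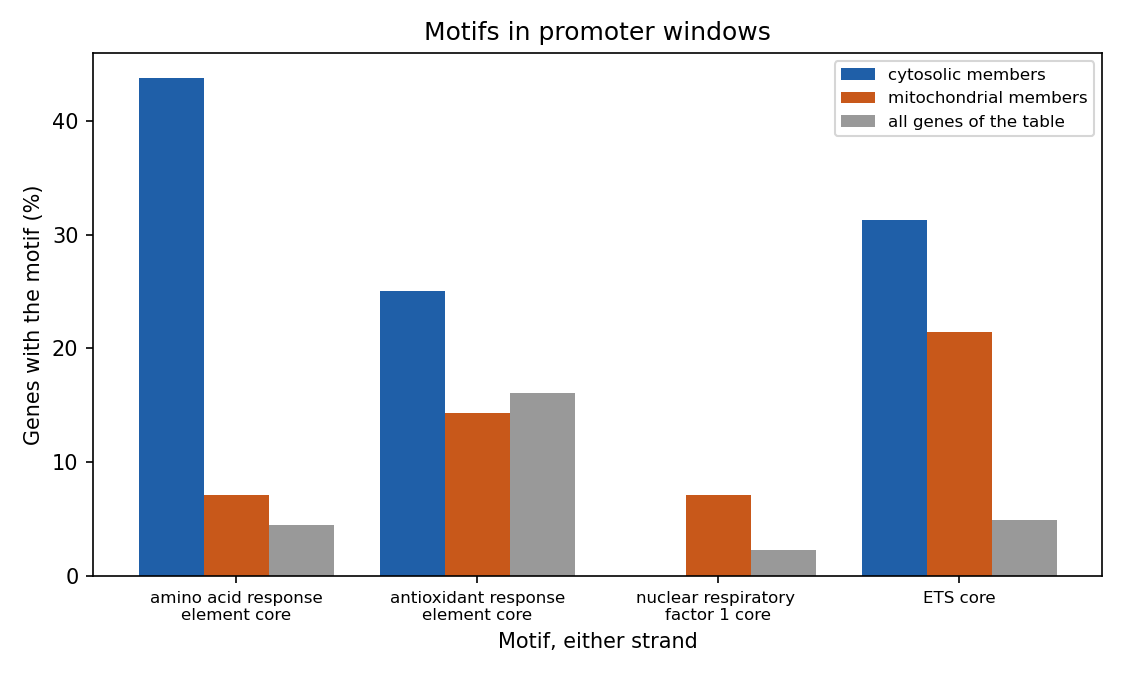
Share of genes with each motif in at least 1 promoter window (vertical axis, percent) for the 16 cytosolic members (blue), the 14 mitochondrial members (orange) and all 27305 genes of the RefSeq table (grey). The amino acid response element core was present in 43.8% of cytosolic members, 7.14% of mitochondrial members and 4.46% of all genes.

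HARS1 and HARS2, the cytosolic and mitochondrial histidine enzymes, are adjacent genes read in opposite directions. Their annotated starts lie 85 bases apart, so their windows overlap. The window of HARS2, chr5:140691205-140691504 (plus strand, GRCh38.p14), is shown because it holds both starts, at 140691370 for HARS1 and at 140691455 for HARS2. Capitals mark its 2 ETS cores, 1 on each strand.
HARS2: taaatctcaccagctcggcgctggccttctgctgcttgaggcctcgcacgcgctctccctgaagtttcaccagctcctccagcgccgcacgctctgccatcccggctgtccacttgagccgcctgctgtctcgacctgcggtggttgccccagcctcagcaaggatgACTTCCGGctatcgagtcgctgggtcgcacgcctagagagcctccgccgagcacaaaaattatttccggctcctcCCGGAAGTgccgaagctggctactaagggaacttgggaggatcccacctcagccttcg
A window that overlapped one on the opposite strand was found for 5 of 16 cytosolic genes and 5 of 14 mitochondrial genes, against 18.9% of all genes of the table. Beside HARS1 and HARS2 these were FARSB, KARS1, TARS1, WARS1, EARS2, FARS2, RARS2 and SARS2.

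The 3 control libraries held 8887854 to 11397407 counts. All 35 members had at least 10 counts in every library, as did 62.3% of the protein-coding genes of the table. Of 7 markers of noradrenergic neuroblastoma, 6 were at 10 or more counts in every library, and TH, the tyrosine hydroxylase gene, was at 0 in each, which allows up to 0.341 CPM. Of 6 markers of other cells, PTPRC (leukocytes) and PECAM1 (endothelium) had at most 1 count, EPCAM (epithelium) 11 to 14, DCN 48 to 60, and the collagen genes COL1A1 121 to 166 and COL3A1 3002 to 3405. Control replicate 3 stood apart from the others: mitochondrially encoded genes took 6.25% of its counts, against 4.11% and 3.83%, and its differences from the others followed GC content. The median variation of each compartment and the number of members called as variable are given with and without it. Levels and ratios include it unless stated. The labels do not say whether the replicates came from separate cultures, so the spread between them may be technical.

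Levels of different genes were compared in TPM, in which counts are divided by the length of the longest annotated transcript and scaled to a total of 1000000 in each library. Levels of a gene between libraries were compared in CPM, counts per 1000000 of the scaled library total. Cytosolic synthetase transcripts were the more abundant group. Their median level was 170, 182 and 178 TPM in replicates 1, 2 and 3, a mean of 177 ± 6.10 TPM (SD, n = 3). The mitochondrial median was 31.8, 35.5 and 33.2 TPM, a mean of 33.5 ± 1.87 TPM. The ratio of the medians was 5.28-fold, with log2 values of 2.42, 2.36 and 2.43, a spread of 0.038 (SD). The difference was far larger than that spread and had the same direction in all 3 libraries. An exact sign permutation test over 3 libraries cannot give a p below 0.25, so none is given, and genes of a group are not replicates.

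The median of the 12388 protein-coding genes that reached 10 counts in each library was 28.0 ± 0.728 TPM. All 19 cytosolic members and 10 of the 16 mitochondrial members lay above it. The ranges of the groups overlapped. IARS2 was higher than 12 of the cytosolic members, and 7 cytosolic members exceeded every mitochondrial one. Together the 19 cytosolic genes took 0.376 ± 0.00795% of all counts and the 16 mitochondrial genes 0.0806 ± 0.00190%.

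**Figure D2:**
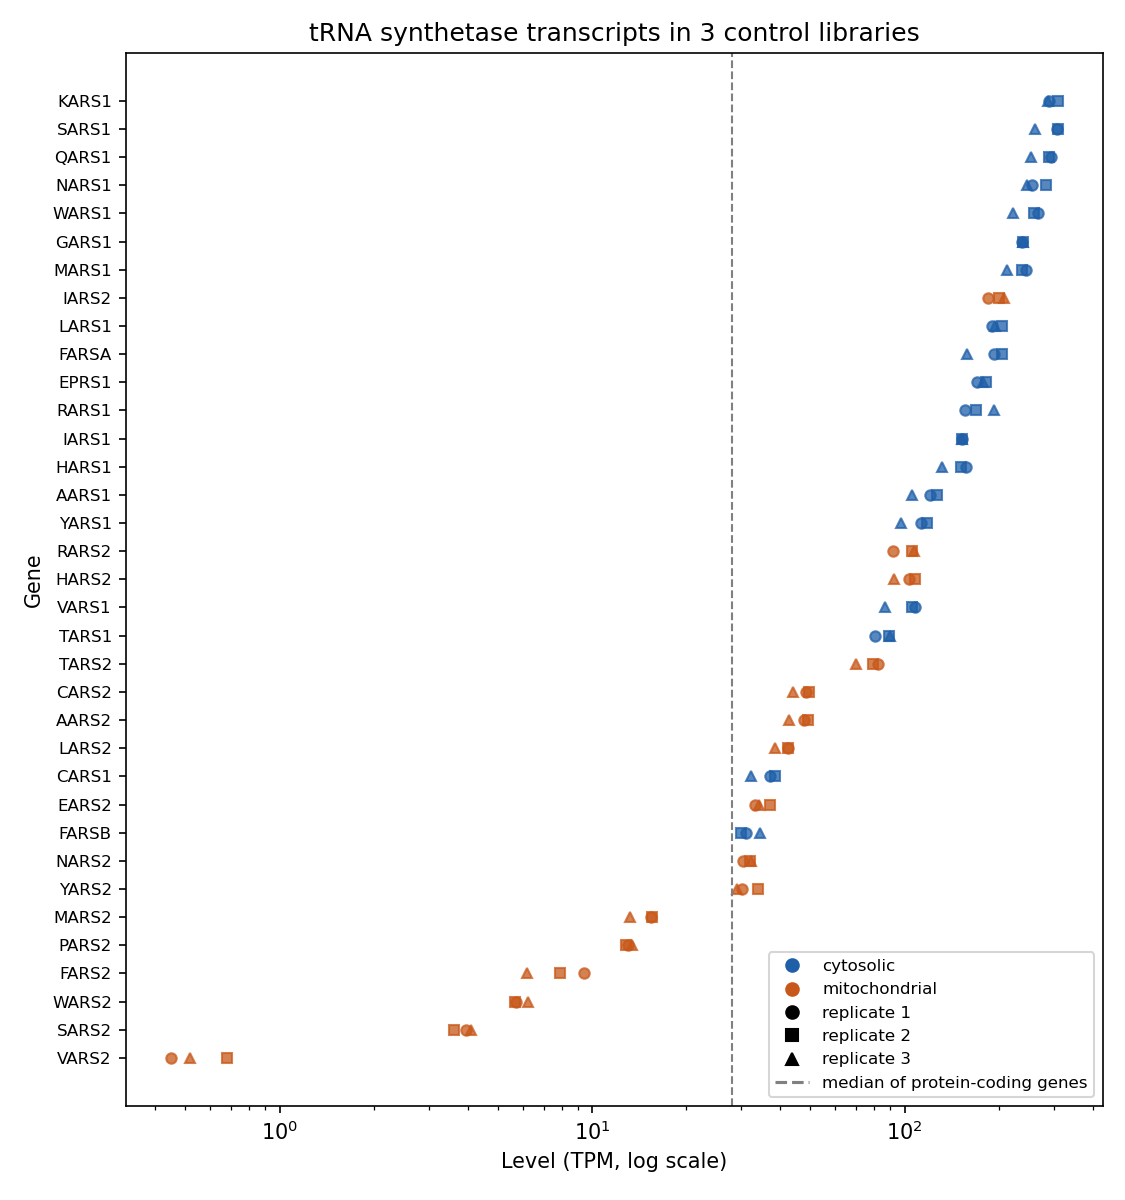
Level of each synthetase transcript (horizontal axis, TPM, log scale) in control replicates 1 (circles), 2 (squares) and 3 (triangles), for cytosolic (blue) and mitochondrial (orange) enzymes ordered by their mean, with the median of protein-coding genes at 28.0 TPM as a dashed line. Cytosolic genes fill most of the upper part from KARS1 at 295 TPM down to FARSB at 31.8 TPM, and mitochondrial genes span from IARS2 at 198 TPM to VARS2 at 0.548 TPM.

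Among cytosolic enzymes the highest level was that of KARS1 (lysine), with 290, 309 and 287 TPM. SARS1 (serine), which also charges the tRNA used for selenocysteine, had 308, 310 and 261 TPM. QARS1 (glutamine) followed with 294, 290 and 254 TPM. The ranges of these genes overlapped, so their order is within their spread. NARS1 (asparagine), WARS1 (tryptophan), GARS1 (glycine) and MARS1 (methionine) came next, with means of 262, 250, 239 and 232 TPM. GARS1 had 237, 240 and 240 TPM in replicates 1, 2 and 3. In CPM it had 214, 215 and 230, a coefficient of variation of 4.05%, close to the 4.11% of MARS1.

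The middle of the cytosolic order was held by LARS1 (leucine, 197 TPM), FARSA (phenylalanine, 186), EPRS1 (glutamate and proline, 177), RARS1 (arginine, 173), IARS1 (isoleucine, 153) and HARS1 (histidine, 147), given as mean TPM. AARS1 (alanine), YARS1 (tyrosine), VARS1 (valine) and TARS1 (threonine) had means of 118, 109, 100.0 and 86.4 TPM. Below a gap stood CARS1 (cysteine), with 37.1, 38.4 and 32.3 TPM. The lowest was FARSB, with 31.1, 29.9 and 34.5 TPM. The level of CARS1 depends on the transcript used. With the length of its APPRIS principal transcript, 2685 in place of 5732 bases, its mean was 64.9 TPM in place of 35.9. With exon-union lengths NARS1, at 267 TPM, was above KARS1 at 237 TPM, and SARS1 (193 TPM), WARS1 (164), HARS1 (88.0) and YARS1 (58.0) were lower.

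FARSA and FARSB encode the subunits of a single enzyme, yet their transcripts differed. FARSA had 193, 205 and 159 TPM, a ratio to FARSB of 6.22, 6.86 and 4.61 in the 3 libraries and 5.89 ± 1.16 on average (SD, n = 3). FARSA was the higher in every library. With exon-union lengths the ratio was 4.98.

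The 7 enzymes of the multisynthetase complex among the members (EPRS1, IARS1, KARS1, LARS1, MARS1, QARS1 and RARS1) lay close together. Their highest and lowest mean levels, KARS1 and IARS1, differed 1.94-fold, while all 19 cytosolic genes spanned 9.29-fold. A range widens with the number of genes. The wider span also rests on CARS1, at 35.9 TPM, and FARSB, at 31.8 TPM, as the next lowest, TARS1, was at 86.4 TPM. The median was 197 ± 7.23 TPM for the 7 and 132 ± 11.7 TPM for the other 12. The complex also holds the noncatalytic proteins AIMP1, AIMP2 and EEF1E1. AIMP1 was at 87.2 ± 7.24 TPM, AIMP2 at 66.0 ± 2.50 TPM and EEF1E1 at 7.88 ± 2.29 TPM, from 24, 30 and 36 counts. All 3 lay below each of the 7 enzymes.

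Synthetases fall into 2 structural classes that arose separately, called class I and class II. The cytosolic medians were 173 ± 18.7 TPM for 9 class I genes and 186 ± 24.1 TPM for 9 class II genes, with EPRS1 left out as a member of both. The mitochondrial medians were 34.8 ± 2.00 TPM for 9 class I genes and 31.6 ± 0.915 TPM for 7 class II genes. The cytosolic ranges over libraries overlapped. With the longest transcripts the mitochondrial class I median was the higher in every library, by little beside the range within each class. That range ran from 0.548 to 198 TPM in class I and from 3.89 to 101 TPM in class II. With exon-union lengths the middle genes by mean level were EARS2, at 32.3 TPM, in class I and NARS2, at 33.9 TPM, in class II. The order of the mitochondrial classes therefore rests on the transcript model.

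Mitochondrial enzymes spanned a wider range. IARS2 (isoleucine) was the highest, with 184, 201 and 208 TPM. RARS2 (arginine) had 92.1, 106 and 107 TPM, and HARS2 had 103, 108 and 92.2 TPM. IARS2 did not overlap the next mitochondrial gene in any library, while RARS2 and HARS2 overlapped each other. TARS2 (threonine) followed with 77.3 TPM on average, then CARS2 (cysteine, 47.2 TPM, or 21.3 with exon-union and 74.7 with principal transcript lengths), AARS2 (alanine, 46.4), LARS2 (leucine, 41.2), EARS2 (glutamate, 34.8), NARS2 (asparagine, 31.6) and YARS2 (tyrosine, 31.2).

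The low end was made up of mitochondrial genes only: 8 of the 16 were below every cytosolic member. NARS2 and YARS2 were close to FARSB and overlapped it, and the other 6 were clearly below. MARS2 (methionine) had a mean of 14.7 TPM, PARS2 (proline) 13.1 TPM and FARS2 (phenylalanine) 7.85 TPM. With principal transcript lengths FARS2 was at 15.3 TPM, above MARS2 at 12.5 and PARS2 at 11.1 TPM, so the order of these 3 rests on the transcript model. WARS2 (tryptophan) had 5.70, 5.65 and 6.23 TPM, from 59, 62 and 56 counts. SARS2 (serine) had 30, 29 and 27 counts, or 3.96, 3.61 and 4.11 TPM. VARS2 (valine) had 10, 16 and 10 counts, or 0.449, 0.677 and 0.517 TPM, with a counting error of up to 31.6%.

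The values of SARS2 and VARS2 are uncertain, because both genes share exons with another gene on the same strand. In GENCODE release 29, 46.2% of the exon bases of SARS2 lie in exons of ENSG00000269547, and 86.9% of the 50-base words of its longest transcript also occur in transcripts of other genes. That overlapping gene had 0, 1 and 0 counts. For VARS2 the overlap is with GTF2H4, over 22.0% of its exon bases, and GTF2H4 had 17, 10 and 8 counts. EEF1G, a translation elongation gene that cells express at high levels, was listed at 0 in every library, and 99.9% of its exon bases lie in another gene of the same strand. The part of these overlaps in the low values was not tested. Without SARS2 and VARS2 the mitochondrial median was 38.0 ± 1.69 TPM, and the log2 ratio of the group medians was 2.22 in place of 2.40.

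Each mitochondrial enzyme was then set beside the cytosolic enzyme for the same amino acid, giving 16 pairs. EPRS1 was the partner of both EARS2 and PARS2. FARS2 was paired with FARSA, the subunit with the higher transcript level, and a pairing with FARSB was not computed. The cytosolic transcript was higher in every library in 13 pairs, the mitochondrial one in 2, and TARS1 and TARS2 changed order between libraries. The median log2 ratio over the pairs was 2.30 ± 0.050 (SD, n = 3), or 4.93-fold. Pairs differed among themselves far more than any pair did between libraries: the mean log2 ratios ran from -0.39 to 7.53, and their SD over libraries from 0.029 to 0.33. With the median length of each gene's annotated transcripts, many of them fragments, no pair changed sides, and the ratios ran from -0.98 for CARS1 over CARS2 to 8.51 for VARS1 over VARS2.

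With the longest transcripts the ratios were highest for valine, serine and tryptophan. VARS1, with 108, 105 and 86.6 TPM, exceeded VARS2 184-fold. SARS1 exceeded SARS2 75.1-fold, and both of these ratios carry the uncertainty of the overlapped gene. WARS1, with 268, 260 and 223 TPM, exceeded WARS2 42.6-fold, with log2 values of 5.55, 5.52 and 5.16, and WARS2 has no exon overlap on its own strand. FARSA over FARS2 (23.9-fold), MARS1 over MARS2 (15.7-fold) and EPRS1 over PARS2 (13.4-fold) came next. The place of phenylalanine holds for FARSA only, as FARSB, at 31.8 TPM, lay much closer to FARS2, at 7.85 TPM. The log2 ratio of MARS1 over MARS2, 3.98, was 3.01 with exon-union lengths and 6.62 with median transcript lengths. That of WARS1 over WARS2 was 4.83 and 6.18, and with median lengths that of SARS1 over SARS2 was 5.26 and of EPRS1 over PARS2 5.88, so methionine then came second, behind valine. With principal transcript lengths that of FARSA over FARS2 was 3.56 in place of 4.58.

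Intermediate ratios were found for NARS1 over NARS2 (8.29-fold), EPRS1 over EARS2 (5.09-fold), LARS1 over LARS2 (4.78-fold), YARS1 over YARS2 (3.51-fold) and AARS1 over AARS2 (2.53-fold). These values depend on the transcript length. The log2 ratio of YARS1 over YARS2, 1.81, was 0.49 with exon-union and 2.68 with median transcript lengths. With median transcript lengths that of LARS1 over LARS2 was 4.18 in place of 2.26, of AARS1 over AARS2 3.10 in place of 1.34, and of EPRS1 over EARS2 1.70 in place of 2.35. RARS1 exceeded RARS2 1.69-fold, with log2 values of 0.76, 0.67 and 0.85.

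With the longest transcripts the last pairs were near 1 or turned. HARS1, with 158, 151 and 132 TPM, exceeded HARS2 1.45-fold, but with exon-union lengths the log2 ratio was -0.057, so the order of this divergent pair rests on the transcript model. Of the 50-base words of HARS2, 15.7% also occur, on either strand, in HARS1 or the neighbouring gene ZMAT2. Of its exon bases, 11.7% lie opposite exons of HARS1 and 4.07% lie in exons of ZMAT2 on the same strand. Whether reads of the part opposite HARS1 were counted elsewhere depends on the strand setting, which is not given. The effect of either overlap was not tested. TARS1 had 80.2, 89.4 and 89.7 TPM and TARS2 82.5, 79.2 and 70.2 TPM, and their log2 ratio, 0.16 ± 0.20, was within its spread. It was 0.34 with exon-union and 0.99 with median transcript lengths. With the GC trend described below removed it was 0.16 ± 0.093, above its spread. IARS2 exceeded IARS1, which had 152, 152 and 153 TPM, by 1.29-fold, with ratios of 1.21, 1.32 and 1.35. This order held with each length tried. CARS2, with 48.2, 49.3 and 44.0 TPM, exceeded CARS1 1.31-fold, but with exon-union lengths the log2 ratio of CARS1 over CARS2 was 0.37 in place of -0.39.

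**Figure D3:**
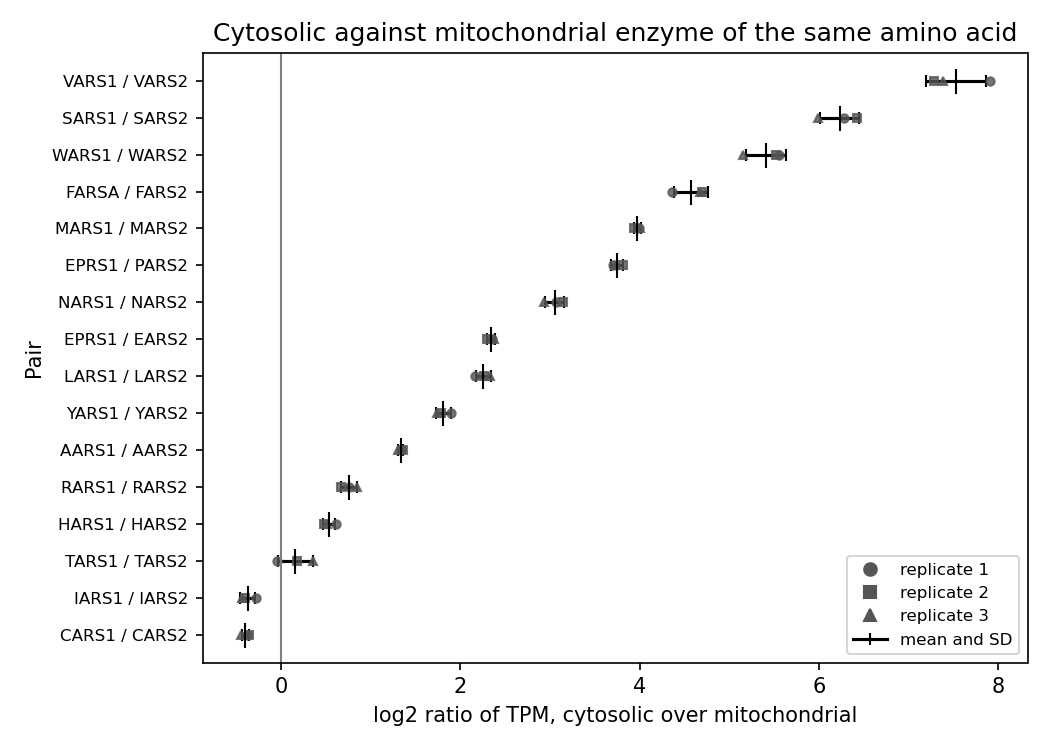
Log2 ratio of TPM, cytosolic over mitochondrial (horizontal axis), for the 16 pairs of enzymes (vertical axis) in control replicates 1 (circles), 2 (squares) and 3 (triangles), with the mean as a vertical tick and the SD as a bar. The ratios ran from -0.39 for CARS1 over CARS2 to 7.53 for VARS1 over VARS2, and 13 pairs lay above 0 in every library.

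The spread between libraries was small for most members. Over the 32 members that averaged 100 counts or more, the median coefficient of variation of CPM was 5.62%. Over all genes that passed the same minimum and had a transcript length it was 7.26%. Those genes were not matched to the members in depth, so the values are not compared further. The median was 5.90% for the 19 cytosolic and 5.58% for the 13 mitochondrial members. Without replicate 3 the values were 3.05% and 3.04%. The lowest coefficients of the 32 were those of LARS2 (69.1, 68.6 and 66.4 CPM, 2.08%) and CARS2 (58.1, 59.1 and 56.2 CPM, 2.54%). Both lay below the counting errors of these genes, so they do not measure steadiness. KARS1 (241, 255 and 253 CPM, 3.11%), IARS1 (243, 242 and 259 CPM, 3.97%) and LARS1 (312, 332 and 336 CPM, 4.04%) followed.

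Of the 32 members that averaged 100 counts or more, the most variable was FARS2, with 12.6, 10.5 and 8.76 CPM (18.0%), from 135, 120 and 77 counts. RARS1 had 115, 123 and 151 CPM (14.4%), FARSB 35.9, 34.3 and 42.2 CPM (11.1%) and RARS2 57.4, 65.6 and 71.0 CPM (10.6%). These 3 were highest in replicate 3, whereas FARS2 was lowest there. FARSA, with 136, 144 and 119 CPM (9.63%), was also lowest in replicate 3.

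A chi-square test asked of each gene whether its counts differed between the libraries by more than counting error, with Benjamini-Hochberg adjustment over the 14535 genes tested. It called 17 of the 35 members at 0.05, 15 of 19 cytosolic and 2 of 16 mitochondrial, against 25.8% of all genes. The cytosolic members had the higher counts, which makes a given relative difference easier to detect. The lowest adjusted p of this chi-square test was that of RARS1, 4.23e-10, followed by IARS2 with 1.65e-07. The other mitochondrial gene called was RARS2. Between replicates 1 and 2 alone the test called 1 member, NARS1 (2926 and 3431 counts), against 2.95% of all genes.

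Replicate 3 had the highest CPM for 11 of the 32 members and the lowest for 17, against 42.7% and 41.3% of all genes averaging 100 counts or more. The direction followed the GC content of the transcript. Across the 32 members the log2 difference of replicate 3 from the mean of the others had a Pearson's r of -0.73 and a Spearman's rho of -0.72 with GC. Across 10290 nuclear genes these were -0.70 and -0.73. Genes of a library share its depth and preparation and are not independent, so these are descriptions. Within the 19 cytosolic members rho was -0.84, and within the 13 mitochondrial members -0.46.

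RARS1, with 41.4% GC, exceeded the other libraries by 0.34 on the log2 scale in replicate 3, FARSB (41.6% GC) by 0.26 and RARS2 (41.9% GC) by 0.21. At the other end FARSA (60.3% GC) had a difference of -0.24 and VARS1 (62.6% GC) of -0.21. FARS2 (52.4% GC) had -0.40, away from the rest, but was not called by the chi-square test. The median difference was -0.091 for the cytosolic and -0.052 for the mitochondrial members. With the GC trend of each library removed these became -0.017 and 0.044.

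**Figure D4:**
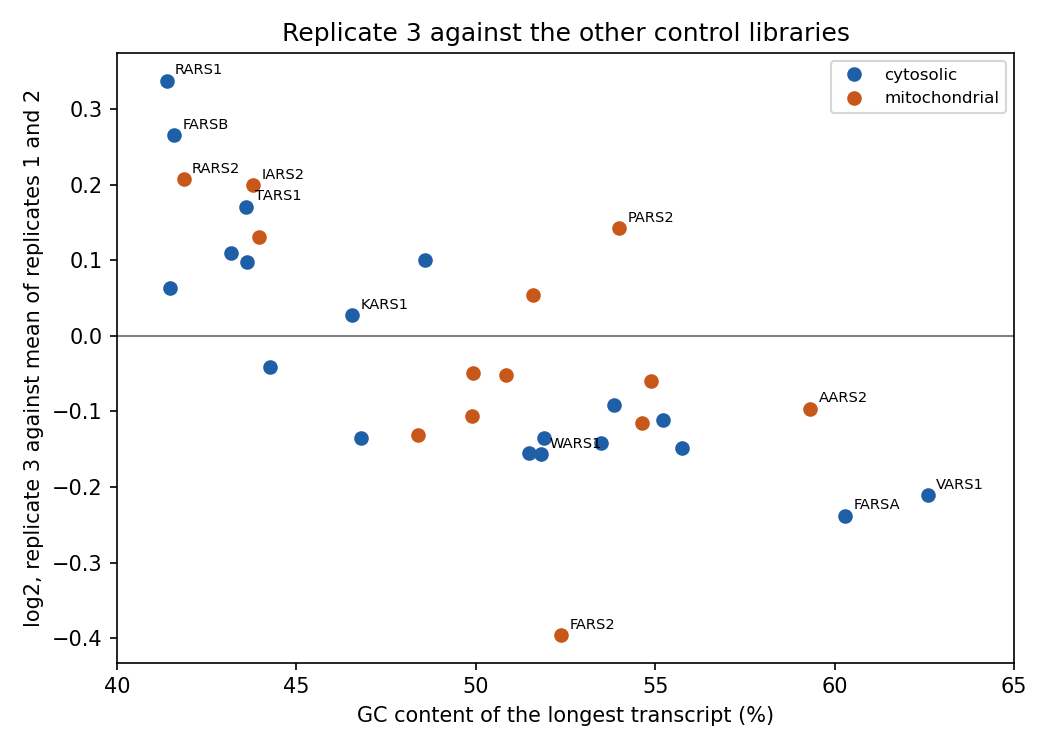
Difference of replicate 3 from the mean of replicates 1 and 2 (vertical axis, log2 of CPM) against the GC content of the longest transcript (horizontal axis, percent) for 19 cytosolic (blue) and 13 mitochondrial (orange) members averaging 100 counts or more. The differences fell from 0.34 for RARS1 at 41.4% GC to -0.21 for VARS1 at 62.6% GC. FARS2 lay apart at -0.40 but was not called by the chi-square test.

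After removal of the trend 4 members were called by the chi-square test, against 7.98% of all genes: HARS1, NARS1, RARS1 and IARS2. The Benjamini-Hochberg adjusted p values of the chi-square test were 0.0142, 0.00598, 0.00333 and 0.00798. The coefficient of variation was lower with the trend removed for 25 of the 32 members. That of VARS1 went from 8.35% to 0.964%, of QARS1 from 4.56% to 0.179% and of MARS1 from 4.11% to 0.411%. The lower values of these 3 genes are below their counting errors, up to 2.89%, 2.09% and 2.02%, and do not measure steadiness. RARS1 kept 8.51%. In other members the coefficient rose, as in PARS2 from 5.87% to 9.83% and in EARS2 from 5.58% to 7.62%. Both values of PARS2 are below its counting error of up to 9.95%, and those of EARS2 are above its own of up to 4.81%. The log2 ratio of cytosolic to mitochondrial medians was 2.40 with and without the trend.

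Other genes that act on charged tRNA were grouped by their role. GATB, GATC and QRSL1 form the amidotransferase that makes mitochondrial glutamine-tRNA in place of a mitochondrial QARS. They were at 15.5 ± 0.455, 25.1 ± 1.81 and 17.9 ± 0.587 TPM, and each lay below the mitochondrial median. MTFMT, which formylates the mitochondrial initiator tRNA, was at 19.3 ± 0.463 TPM. SEPSECS and PSTK, which turn serine on SARS1-charged tRNA into selenocysteine, were at 6.07 ± 0.387 and 5.18 ± 0.599 TPM, far under SARS1. The deacylases DTD1 and DTD2, which remove D-amino acids from tRNA, were at 16.8 ± 0.565 and 3.50 ± 0.248 TPM, and the editing gene AARSD1 at 5.32 ± 0.261 TPM.

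All 12 genes of the tRNA maturation list were above that minimum of 10 counts, with a median of 31.5 ± 2.01 TPM. They ran from PRORP, the subunit of mitochondrial RNase P that cuts the tRNA, at 4.21 TPM to its partner HSD17B10 at 398 TPM. Of the elongation factors that carry charged tRNA to the ribosome in the cytosol, EEF1A1 was at 2653 ± 105 TPM, above each of the 35 members, and EEF1A2 at 177 ± 23.2 TPM, within the range of the cytosolic synthetases. TUFM, its mitochondrial counterpart, had 377, 361 and 310 TPM, close to KARS1 and SARS1. In the cytosolic elongation list EEF2, the translocation factor, had the highest mean, 2788 ± 362 TPM, but EEF1A1 exceeded it in replicate 3, so their order is within the spread.

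The genes of the response to uncharged tRNA were all measured. EIF2AK4 was at 51.9 ± 1.84 TPM, GCN1, its activator, at 143 TPM, and ATF4 at 170 ± 17.9 TPM, the highest of the 9 genes. Of the ATF4 targets in the list, DDIT3 was at 40.2 ± 1.08 TPM, TRIB3 at 30.7 ± 1.73, SESN2 at 24.7 ± 1.44, ASNS at 5.03 ± 1.19 and CHAC1 at 4.84 ± 0.471 TPM. In ASNS 44.6% of the exon bases, and in DDIT3 8.03%, lie in exons of another gene of the same strand. The part of this overlap in their levels was not tested. The cytosolic synthetase genes with the amino acid response element core had a median of 153 TPM (7 genes, 35.9 to 262), and those without it 186 TPM (9 genes, 31.8 to 295), so their levels overlapped widely. LARS1 is also known as a leucine sensor for the Rag GTPases. Of these RRAGA was at 184 ± 8.54 TPM, near LARS1, and RRAGB, RRAGC and RRAGD were at 21.0, 13.0 and 6.09 TPM.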

How the data were processed

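The authors deposited whole-number read counts for each Ensembl gene ID, per the file headers. The submitters' processing notes name fastp 0.21.1, STAR 2.7.7a, featureCounts and GRCh38. The annotation release, strand setting and treatment of shared reads are not given in the sources used here. The library kit, a stranded mRNA kit, keeps strand, per the labels' protocols. Columns were matched by number to the 3 controls. The other 3 columns match no label and were not used, so the planned edgeR comparison with peptide-treated samples was not run. The members and lists were chosen with earlier results of these data known. All members are named with their mean. Values per library are given for the 3 highest and 3 lowest levels in each compartment, the 3 highest and 3 lowest pair ratios, the 5 highest and 5 lowest coefficients of variation among members averaging 100 counts or more, and GARS1, KARS1, QARS1, FARSA, FARSB, HARS1 and HARS2. CPM, TPM and percent values were computed here from the deposited counts. Library sizes were scaled with TMM factors (edgeR 4.0.16, R 4.3.3). Lengths and GC content came from GENCODE release 29, and genes of the deposited table that it lacks held 0.0555% of the counts. Copies of genes on the Y part of the shared sex-chromosome regions (44 entries) and 1 gene without values were left out. A GC trend was the median deviation of 10290 nuclear genes in 50 bins. The chi-square test was tested on simulated data. Calculations used scipy 1.17.1, pandas 2.3.3 and numpy 2.4.6 under Python 3.11.15.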

Additional observations from a re-analysis of the deposited data

How the results depend on the processing

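The log2 ratio of cytosolic to mitochondrial medians, 2.40, stayed positive under every alternative run, from 2.21 (exon-union length, chosen after seeing the data) to 3.10 (median transcript length). It was 2.54 with APPRIS principal transcripts and 2.22 without SARS2 and VARS2, both also chosen after seeing the data, 2.24 without GARS1, KARS1 and QARS1, and 2.69 as a mean of log2 levels. The median over pairs, 2.30, was 3.21 with median transcript lengths, 2.39 with exon-union lengths, and 2.03 without the EPRS1 pairs or without those of SARS2 and VARS2. Without replicate 3 the ratio of medians was 2.39 and the median over pairs 2.27. Of the pairs, exon-union length turned CARS1 over CARS2 to 0.37 and HARS1 over HARS2 to -0.057. Scaling cannot change a ratio within a library. Leaving mitochondrially encoded genes out raised the median member from 118 to 124 CPM and the summed shares to 0.395% and 0.0846%, since the total is smaller. With the GC trend removed, 4 members in place of 17 varied beyond counting error, the median variation of cytosolic members was 3.83%, and the median difference of replicate 3 was -0.017 for cytosolic and 0.044 for mitochondrial members. Without replicate 3, 1 member was called, against 2.95% of all genes. Without replicate 1, 10 members were called, and without replicate 2, 14. The share of all genes was not computed for these 2 settings, so their counts cannot be set against it. When 1 library was left out, the median variation was 3.05 to 6.28% (cytosolic) and 3.04 to 6.37% (mitochondrial). Where not stated, the cause was not tested. No paired analysis was possible because columns matched only the control samples, and the other alternatives planned for the treatment comparison were not run. Depth limits VARS2, SARS2 and WARS2 most.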

Other observations

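Several genes that work with the synthetases had few counts and share exons with another gene of the same strand in GENCODE release 29. TSFM, the mitochondrial elongation factor that recharges TUFM, had 9, 6 and 10 counts, with 18.7% of its exon bases shared. AARSD1 had 25, 29 and 22 counts with 34.2% shared, and ASNS, the asparagine synthetase, had 54, 46 and 29 counts with 44.6% shared. EEF1E1 had 24, 30 and 36 counts with 18.7% shared. PRORP had 89, 90 and 96 counts with 40.9% shared. GATC, with 8.53% shared, had 364, 446 and 340 counts. Whether the overlap bears on these counts was not tested.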
